A study of Mus musculus with 9 samples.

Results

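The genes described here are the Wnt ligands, the Frizzled (Fzd) receptors, the secreted Frizzled-related proteins (Sfrp) and the Dickkopf inhibitors (Dkk), measured across 9 adult mouse skeletal muscles. They were taken as every gene whose symbol in the array annotation begins with Wnt, Fzd or Sfrp and a number, or with Dkk and a number from 1 to 4, on probe sets that name a single gene. This gave 38 of the 22180 genes measured, on 39 probe sets. The 38 are 19 Wnt ligands, 10 Frizzled receptors, 4 secreted Frizzled-related proteins, 4 Dickkopf genes and Fzd10os, a transcript gene that lies next to Fzd10 and matches the pattern by its symbol only. Frzb, which belongs to the secreted Frizzled-related family under another name, is given with the other pathway genes.

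The mice were male, of the inbred strain C57BL/6J and 12 weeks old, with no other genotype and no treatment named in the labels, and RNA of frozen tissue was hybridised to whole-transcript GeneChip arrays. The series title concerns positional memory in adult muscle, so the arrays were grouped by the body region of the muscle: masseter and digastric as head (n = 2), trapezius, supraspinatus and triceps as shoulder and forelimb (n = 3), and rectus femoris, tibialis anterior, soleus and gastrocnemius as hindlimb (n = 4). Each muscle has 1 array, the labels name the muscle and not the region, and pooling of animals is neither stated nor denied there. Each SD below is therefore the spread of unlike muscles within 1 region, and tests use this spread in place of one between animals.

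Wnt proteins are lipid-modified secreted ligands that bind Frizzled receptors together with Lrp5 or Lrp6. In the canonical branch this stabilises beta-catenin, which acts with Tcf and Lef factors on target genes, while other branches act through planar polarity proteins, small GTPases and calcium. Secreted Frizzled-related proteins bind Wnt ligands outside the cell, and most Dickkopf proteins block the Lrp co-receptors. In skeletal muscle the pathway is known for its part in embryonic myogenesis, in the regulation of satellite cells and in the neuromuscular junction.

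Values are log2 expression units after GCRMA, so a difference of 1 is a doubling of signal. The array medians lay between 3.34 and 3.44, a low value may be background alone, and genes with a mean under 4 over the 9 arrays were treated as near background. The SD over probe sets was 1.92 to 1.96 in triceps, rectus femoris and gastrocnemius, called arrays of narrow value range here, and 2.03 to 2.08 in the 6 others, called arrays of wide value range. The wide set holds 2 arrays of each region and the narrow set holds none from the head. Differences of single genes among wide arrays are therefore given beside the results where they move by over 1.5 times or change sign. Medians over the pathway and marker lists are given for all 9 arrays only. The wide hindlimb arrays are tibialis anterior and soleus, so soleus weighs more in their mean. Value range and the weight of soleus cannot be told apart there. Between all arrays and wide arrays the sign turned for 6 of 38 members in hindlimb minus head, 8 in hindlimb minus shoulder and forelimb, and 3 in shoulder and forelimb minus head. The share over all genes was not counted, so these counts say nothing particular to the members. The 13 skeletal muscle markers had a mean log2 level of 11.19 to 11.82 on every array, with none of them under 4 throughout. Of the 7 salivary gland markers measured, Klk1, Bpifa2 and Amy1 had their highest level in a head array. They are named after their values were seen. The others were highest outside the head: Muc19 in gastrocnemius, Prol1 and Aqp5 in rectus femoris, and Dcpp1 in triceps. Amy1 was at 4.18 in digastric, 3.84 in trapezius and 2.23 to 2.94 elsewhere. Klk1, a kallikrein, was at 7.28 in masseter and from 0.91 (digastric) to 1.93 elsewhere. Bpifa2, a salivary secretory protein, was at 5.16 in digastric, 3.74 in masseter and 2.24 to 2.99 elsewhere. The part of gland tissue in the members' values was not tested.

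No member passed the limma test (adjusted p under 0.05 over all genes) in any of the 3 regional comparisons. Over all genes the share that passed was 0.00902% between hindlimb and head, 0.00451% between hindlimb and shoulder with forelimb, and 0% in the comparison of shoulder and forelimb with head. The members with the clearest regional values were Fzd4, Fzd9 and Sfrp2. Fzd4 had its highest levels in head muscles and trapezius, and Fzd9 was lowest in head muscles and highest in soleus. Sfrp2 was lowest in head muscles on the probe set used, but not on its other one. Wnt10b and its genomic neighbour Wnt1 were lowest in head muscles too, but both are near background. The sequence that lies upstream of the start of each of these 5 genes is shown first, since their values carry the results that follow. Each run is the 250 bases before the RefSeq gene start on GRCm38.p6, on the strand of the gene, with capitals marking GC boxes (GGGCGG on either strand, overlapping matches joined).
Fzd4, chr7:89404116-89404365, plus strand: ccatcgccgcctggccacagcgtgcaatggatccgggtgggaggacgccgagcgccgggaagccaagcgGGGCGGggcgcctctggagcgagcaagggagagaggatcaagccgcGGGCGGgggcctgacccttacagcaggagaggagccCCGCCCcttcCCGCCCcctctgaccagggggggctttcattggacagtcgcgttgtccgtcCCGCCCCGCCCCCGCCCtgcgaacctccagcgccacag
Fzd9, chr5:135251048-135251297, minus strand: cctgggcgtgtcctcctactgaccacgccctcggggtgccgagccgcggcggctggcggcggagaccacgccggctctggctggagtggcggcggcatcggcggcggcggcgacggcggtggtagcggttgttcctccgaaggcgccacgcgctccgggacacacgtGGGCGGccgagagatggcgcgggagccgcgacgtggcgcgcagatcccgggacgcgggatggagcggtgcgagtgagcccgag
Sfrp2, chr3:83766071-83766320, plus strand: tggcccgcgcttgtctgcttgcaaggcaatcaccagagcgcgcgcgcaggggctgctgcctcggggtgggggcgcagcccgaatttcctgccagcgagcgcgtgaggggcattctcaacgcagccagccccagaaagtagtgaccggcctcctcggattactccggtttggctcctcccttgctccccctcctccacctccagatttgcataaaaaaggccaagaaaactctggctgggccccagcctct
Wnt10b, chr15:98778151-98778400, minus strand: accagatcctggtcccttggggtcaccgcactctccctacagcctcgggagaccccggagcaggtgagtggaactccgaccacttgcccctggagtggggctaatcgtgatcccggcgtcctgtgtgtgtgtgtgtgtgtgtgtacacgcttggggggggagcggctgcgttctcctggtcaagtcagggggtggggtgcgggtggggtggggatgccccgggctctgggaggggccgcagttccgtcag
Wnt1, chr15:98789607-98789856, plus strand: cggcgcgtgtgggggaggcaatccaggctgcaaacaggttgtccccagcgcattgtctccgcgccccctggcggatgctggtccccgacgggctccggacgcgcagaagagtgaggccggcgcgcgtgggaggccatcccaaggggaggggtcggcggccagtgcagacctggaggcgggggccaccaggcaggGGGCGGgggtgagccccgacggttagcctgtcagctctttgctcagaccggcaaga

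The Fzd4 stretch held 7 GC boxes, those of Fzd9 and Wnt1 held 1 each, and those of Sfrp2 and Wnt10b held 0. The promoter table matched 25 members outside chromosome 18. A GC box stood in the upstream stretch of 19 of the 25 (76.0%), against 32.7% of all 32851 promoters in the table, and the median GC content was 71.6% against 52.4%. The Tcf and Lef core motif was searched on both strands as CTTTGA, found in 3 of 25 (12.0%) against 13.8% of all promoters, and as CTTTGT, found in 5 of 25 (20.0%) against 16.5%. The E-box CANNTG stood in 15 of 25 (60.0%) against 66.2%. The TATA motif TATAAA, searched on the gene strand only, stood in 4 of 25 (16.0%) against 7.59%. These matches describe the letters in a short window and show no binding. Where a gene has several starts, the first listed in the table was used.

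Among the receptors, Fzd4, which binds both Wnt ligands and norrin and is known from the retinal vasculature, was the only Frizzled gene whose hindlimb arrays all lay below both head arrays. Fzd4 (Entrez gene 14366) was at 8.60 in masseter and 8.38 in digastric, at 8.57 in trapezius, 7.93 in supraspinatus and 7.62 in triceps, and at 6.91 in rectus femoris, 7.71 in tibialis anterior, 7.70 in soleus and 6.73 in gastrocnemius. The head arrays and trapezius were the 3 highest, and rectus femoris, gastrocnemius and triceps, the arrays of narrow value range, the 3 lowest. The level was 8.49 ± 0.16 (SD, n = 2) in head, 8.04 ± 0.49 (SD, n = 3) in shoulder and forelimb and 7.26 ± 0.51 (SD, n = 4) in hindlimb muscles. The head level was 2.34-fold the hindlimb level, a hindlimb minus head difference of -1.23 (SE 0.33, 95% interval -1.97 to -0.49, unadjusted p = 0.004, limma adjusted p = 0.36), which did not pass over all genes. Among arrays of wide value range it was -0.79. Against shoulder and forelimb muscles the hindlimb difference was -0.78 (unadjusted p = 0.0243, adjusted p = 1), and -0.55 among wide arrays.

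In tissue RNA, fewer cells of a type and less RNA per cell cannot be told apart. Endothelial markers were therefore set beside Fzd4. All 10 of them were measured and none was under 4 on every array. Their mean log2 level was 6.71 to 6.97 in head, 6.12 to 6.34 in shoulder and forelimb and 5.86 to 6.85 in hindlimb muscles, and 9 of 10 had a negative hindlimb minus head difference. Among wide arrays Cdh5 and Vwf of these 9 turned positive, from -0.46 to 0.0079 and from -0.02 to 0.19. The others of the 9 shrank, such as Emcn from -1.08 to -0.50 and Pecam1 from -0.60 to -0.12. The order of the muscles was not the same for both: trapezius had an endothelial mean of 6.17 with Fzd4 at 8.57, and soleus had one of 6.85 with Fzd4 at 7.70. The part of these cells in the Fzd4 values was not tested.

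**Figure D1:**
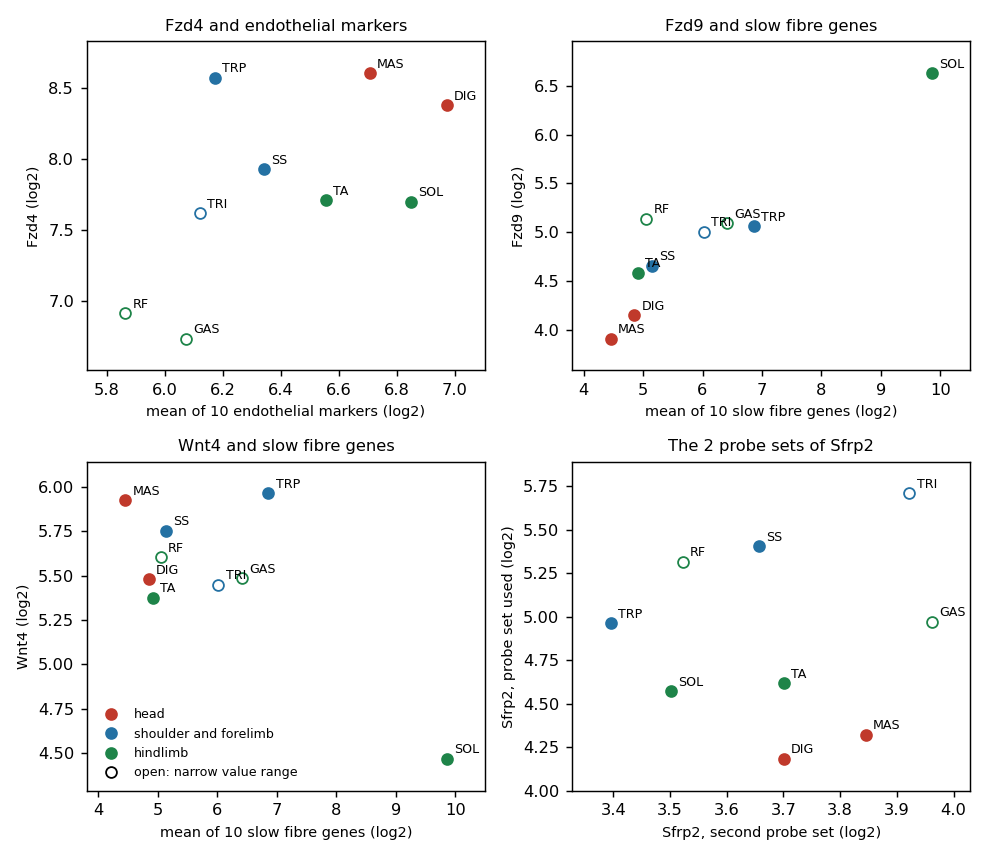
Levels of Fzd4, Fzd9 and Wnt4 on each of the 9 arrays (log2 units) against the mean log2 level of endothelial markers or slow fibre genes, and both probe sets of Sfrp2 against each other; each point is 1 array, filled by region, open for arrays of narrow value range. Soleus stands apart for Fzd9 at 6.63 and for Wnt4 at 4.47, Fzd4 is lowest in gastrocnemius and rectus femoris, and the second Sfrp2 probe set spans only 3.40 to 3.96.

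Fzd9, a Frizzled receptor reported at the neuromuscular junction, had the reverse regional order. Fzd9 (Entrez gene 14371) was at 3.91 in masseter and 4.15 in digastric, at 5.06 in trapezius, 4.65 in supraspinatus and 5.0 in triceps, and at 5.14 in rectus femoris, 4.59 in tibialis anterior, 6.63 in soleus and 5.09 in gastrocnemius. Both head arrays lay below the 7 others, and soleus lay 1.49 above the next array, rectus femoris. The level was 4.03 ± 0.17 (SD, n = 2) in head, 4.91 ± 0.22 (SD, n = 3) in shoulder and forelimb and 5.36 ± 0.88 (SD, n = 4) in hindlimb muscles. The hindlimb level was 2.52-fold the head level, a difference of 1.33 (SE 0.44, 95% interval 0.35 to 2.31, unadjusted p = 0.0124, adjusted p = 0.381), which did not pass. It was 0.91 without soleus and 1.58 among wide arrays, where the hindlimb arrays are tibialis anterior and soleus. Shoulder and forelimb muscles exceeded head muscles by 0.88 (adjusted p = 0.735), and by 0.46 with the trapezius counted among the head muscles.

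The soleus is the slow muscle of the set, and the 10 slow fibre genes had a mean log2 level of 9.86 there against 4.45 to 6.86 in the 8 other arrays, with 4.45 and 4.85 in the head arrays. Fzd9 thus stood highest where slow fibre genes stood highest and lowest where they stood lowest. Between these ends the order was not the same. Rectus femoris had Fzd9 at 5.14 with a slow fibre mean of 5.05, and trapezius had Fzd9 at 5.06 with one of 6.86. The part of fibre type in the Fzd9 values was not tested. Fibre type and position in the body cannot be told apart in the soleus, which is 1 array. A soleus level at least 1 above every other array was seen for 2 of the 38 members, Fzd9 and Fzd10os, and for 0.437% of all genes. Among all genes with a mean of at least 4 the share was 0.689%. Both members were singled out from these same values, so the share is no test.

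Fzd7, a receptor known in satellite cells as a partner of Wnt7a, had overlapping levels in all regions. Fzd7 was at 7.33 in masseter and 6.74 in digastric, at 7.03 in trapezius, 7.29 in supraspinatus and 7.16 in triceps, and at 7.25 in rectus femoris, 6.85 in tibialis anterior, 6.35 in soleus and 7.27 in gastrocnemius. Soleus was lowest, digastric and tibialis anterior came next. Its hindlimb minus head difference was -0.11 (95% interval -0.70 to 0.49, adjusted p = 0.894) with all arrays and -0.43 among wide arrays. Against shoulder and forelimb muscles the values were -0.23 and -0.56. The wide arrays keep soleus, where Fzd7 was lowest.

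Fzd6, a receptor known from hair and tissue polarity, had the second widest span of all Frizzled receptors, and that span lay within the hindlimb. Fzd6 was at 4.52 in masseter and 4.85 in digastric, at 4.03 in trapezius, 4.49 in supraspinatus and 4.11 in triceps, and at 3.37 in rectus femoris, 4.47 in tibialis anterior, 5.27 in soleus and 2.86 in gastrocnemius. The lowest values were those of gastrocnemius and rectus femoris, both of narrow value range, and the highest was that of soleus. The hindlimb minus head difference was -0.70 (adjusted p = 0.602) with all arrays and 0.18 among wide arrays, so its sign turned with that choice. The wide arrays keep soleus and leave out gastrocnemius and rectus femoris.

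The remaining Frizzled receptors with a mean of at least 4 were Fzd1, Fzd5 and Fzd8, and their regions overlapped in all comparisons. Fzd1 was at 4.50 in masseter and 4.53 in digastric, at 4.51 in trapezius, 4.25 in supraspinatus and 4.62 in triceps, and at 4.71 in rectus femoris, 4.26 in tibialis anterior, 4.21 in soleus and 4.56 in gastrocnemius. Fzd5 was at 4.57 in masseter and 4.36 in digastric, at 4.20 in trapezius, 4.82 in supraspinatus and 4.19 in triceps, and at 4.43 in rectus femoris, 4.57 in tibialis anterior, 4.43 in soleus and 4.02 in gastrocnemius. Fzd8 was at 3.87 in masseter and 4.64 in digastric, at 4.23 in trapezius, 4.22 in supraspinatus and 3.98 in triceps, and at 4.06 in rectus femoris, 4.55 in tibialis anterior, 4.23 in soleus and 4.38 in gastrocnemius. Fzd1 spanned 0.50 in all, and the spans of Fzd5 and Fzd8 were 0.80 and 0.77. The hindlimb minus head difference of Fzd5 turned from -0.10 to 0.04 among wide arrays. None of the 3 had an unadjusted p under 0.05 in any comparison.

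Fzd2, Fzd3, Fzd10 and Fzd10os had means under 4. Fzd2 ran from 2.74 in soleus to 4.04 in gastrocnemius, and its 3 highest values were those of the 3 arrays of narrow value range. Its hindlimb minus head difference of 0.34 became -0.23 among wide arrays. Fzd10os was at 4.79 in soleus and between 2.57 and 3.58 elsewhere, while Fzd10, its neighbour on chromosome 5, was between 1.52 and 2.37 on all 9 arrays. Fzd3 spanned 2.24 to 3.03.

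Among the ligands, Wnt4, which adult myofibres are known to produce, stood out in soleus on the lower side. Wnt4 (Entrez gene 22417) was at 5.92 in masseter and 5.48 in digastric, at 5.96 in trapezius, 5.75 in supraspinatus and 5.45 in triceps, and at 5.60 in rectus femoris, 5.37 in tibialis anterior, 4.47 in soleus and 5.48 in gastrocnemius. Soleus was 0.91 below the next lowest array, tibialis anterior, and the 8 others lay within 0.59 of each other. A soleus level at least 0.5 below every other array was seen for 1 of 38 members, Wnt4, and for 0.618% of all genes. Among all genes with a mean of at least 4 the share was 1.05%. This cut is looser than the cut of 1 used for high soleus levels, which the gap of Wnt4 does not reach. Wnt4 was singled out from these same values, so the share is no test. The regional differences were -0.47 for hindlimb minus head (95% interval -1.15 to 0.21, adjusted p = 0.535) and -0.49 for hindlimb minus shoulder and forelimb (adjusted p = 1), and neither passed. Among wide arrays, with only tibialis anterior and soleus from the hindlimb, they were -0.78 and -0.94.

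Wnt5b was lowest in supraspinatus and masseter, and Wnt9a in digastric. Wnt5b was at 3.78 in masseter and 3.90 in digastric, at 4.28 in trapezius, 3.78 in supraspinatus and 4.18 in triceps, and at 4.29 in rectus femoris, 4.29 in tibialis anterior, 4.50 in soleus and 4.39 in gastrocnemius. Wnt9a was at 4.50 in masseter and 4.29 in digastric, at 4.81 in trapezius, 4.88 in supraspinatus and 4.91 in triceps, and at 4.78 in rectus femoris, 4.42 in tibialis anterior, 4.92 in soleus and 5.04 in gastrocnemius. For Wnt5b, a ligand of the non-canonical branch, every hindlimb array lay above every array of the other regions (trapezius came nearest), at 4.37 ± 0.10 (SD, n = 4) against 3.84 ± 0.09 (SD, n = 2) in head muscles. The difference was 0.53 (SE 0.18, unadjusted p = 0.0129, adjusted p = 0.381) and 0.56 among wide arrays. For Wnt9a the 3 shoulder and forelimb arrays lay above both head arrays, by 0.47 on average (SE 0.20, unadjusted p = 0.0376, adjusted p = 0.719).

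Wnt11, Wnt5a and Wnt6 completed the ligands with a mean of at least 4. Wnt11 was at 4.93 in masseter and 4.80 in digastric, at 4.78 in trapezius, 4.59 in supraspinatus and 4.84 in triceps, and at 4.90 in rectus femoris, 4.89 in tibialis anterior, 4.51 in soleus and 4.66 in gastrocnemius. Wnt5a was at 4.47 in masseter and 4.08 in digastric, at 4.04 in trapezius, 4.04 in supraspinatus and 4.06 in triceps, and at 4.60 in rectus femoris, 3.89 in tibialis anterior, 3.83 in soleus and 4.01 in gastrocnemius. Wnt6 was at 3.88 in masseter and 4.08 in digastric, at 4.05 in trapezius, 3.74 in supraspinatus and 4.06 in triceps, and at 4.75 in rectus femoris, 4.04 in tibialis anterior, 3.92 in soleus and 4.62 in gastrocnemius. Wnt11, which acts in the non-canonical branch, spanned 0.41, the narrowest of these 6 ligands. Wnt5a was highest in rectus femoris and masseter, and Wnt6 in rectus femoris and gastrocnemius. The Wnt6 difference of 0.35 between hindlimb and head muscles was 0.0010 among wide arrays.

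The other 13 ligands had means under 4, and their values ran from 1.48 (Wnt16 in triceps) to 4.53 (Wnt2b in rectus femoris). Wnt10b, a canonical ligand known to hold back fat formation, was at 2.39 and 2.55 in head arrays, 2.79 to 3.18 in shoulder and forelimb arrays and 2.94 to 3.61 in hindlimb arrays. Its hindlimb minus head difference was 0.79 (SE 0.21, 95% interval 0.32 to 1.26, unadjusted p = 0.00359, adjusted p = 0.36), and 0.55 among wide arrays. Wnt1, Wnt7a, Wnt7b and Wnt9b also had an unadjusted p under 0.05 there, with differences of 0.50, 0.51, 0.46 and 0.42, and of 0.24, 0.37, 0.26 and 0.47 among wide arrays. Their adjusted p was 0.386 to 0.419, and none passed. Each was at 2.84 or more on every array and at most 4.22. Wnt7a, a ligand that drives symmetric division of satellite cells, was at 3.17 and 3.0 in head arrays against 3.29 to 3.80 in the 7 others. Wnt3a was at 3.48 and 3.41 in head arrays, 3.82 to 4.06 in shoulder and forelimb arrays and 3.61 to 4.19 in hindlimb arrays. Its shoulder and forelimb minus head difference was 0.49 (SE 0.20, unadjusted p = 0.0297, adjusted p = 0.718). Wnt16 spanned 1.48 to 2.51.

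Wnt genes lie in neighbouring pairs in the genome, and 4 such pairs of members had no other protein-coding gene between them in GRCm38.p6. Wnt10b and Wnt1 on chromosome 15 differed by 0.79 and 0.50 between hindlimb and head muscles, and by 0.47 and 0.37 between shoulder and forelimb and head muscles. Among wide arrays the latter were 0.51 and 0.24. For both genes all arrays of either limb region lay above both head arrays. Wnt3a and Wnt9a on chromosome 11 differed by 0.49 and 0.47 between shoulder and forelimb and head muscles. Wnt9b and Wnt3, also on chromosome 11, differed by 0.42 and 0.30 between hindlimb and head muscles. For hindlimb minus shoulder and forelimb they differed by 0.32 and 0.01, and by 0.43 and -0.01 among wide arrays. For shoulder and forelimb minus head they differed by 0.10 and 0.28, and by 0.04 and 0.21 among wide arrays. For Wnt6 and Wnt10a on chromosome 1 the hindlimb minus head values were 0.35 and -0.21, of opposite sign. Among wide arrays they were 0.0010 and -0.16. Of these 8 genes, 6 had means under 4. The comparisons with head muscles share the same 2 head arrays.

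**Figure D2:**
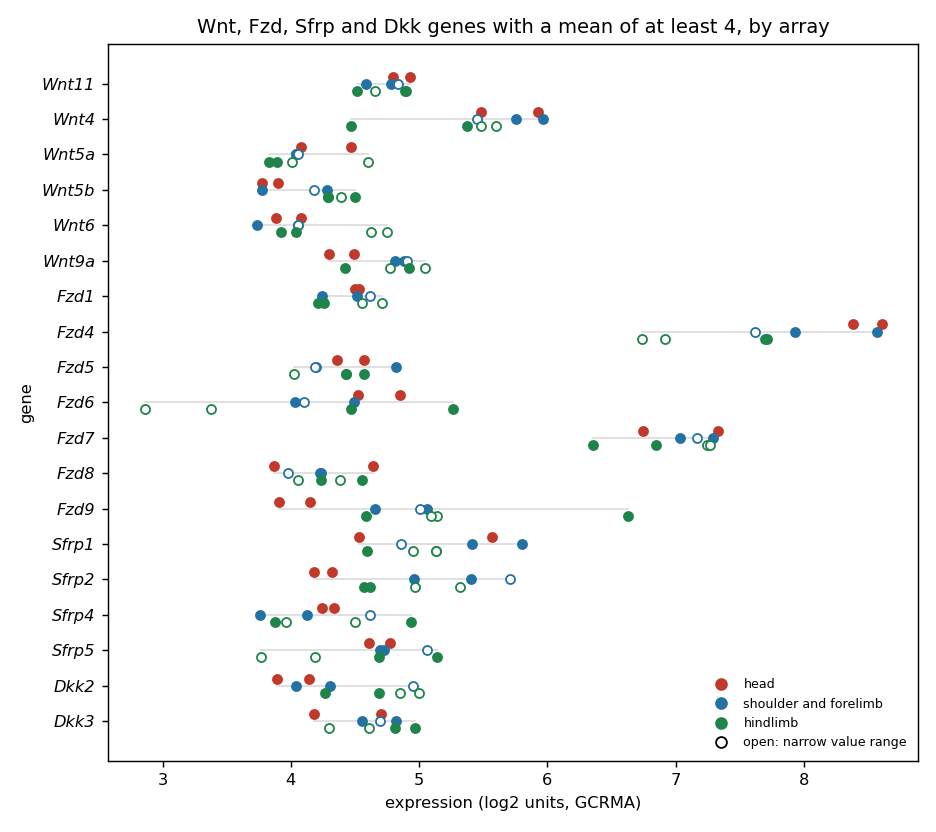
Log2 expression (horizontal axis, GCRMA units) of the 19 Wnt, Fzd, Sfrp and Dkk genes with a mean of at least 4, with 1 point per array coloured by region and open for arrays of narrow value range; grey lines span lowest to highest. Fzd4 and Fzd9 part head from hindlimb arrays in opposite directions, and Fzd6, from 2.86 to 5.27, and Fzd9, from 3.91 to 6.63, have the longest lines.

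Of the secreted Frizzled-related proteins all 4 had a mean of at least 4 and each spanned at least 1. Among all genes with a mean of at least 4, 36.6% had such a span. Sfrp2, an extracellular Wnt modulator of connective tissue and injured muscle, had the lowest unadjusted p of any member in the comparison of shoulder and forelimb with head muscles. Sfrp2 (Entrez gene 20319) was at 4.32 in masseter and 4.18 in digastric, at 4.96 in trapezius, 5.41 in supraspinatus and 5.71 in triceps, and at 5.31 in rectus femoris, 4.62 in tibialis anterior, 4.57 in soleus and 4.97 in gastrocnemius. Both head arrays lay below all 7 others. The level was 4.25 ± 0.10 (SD, n = 2) in head, 5.36 ± 0.38 (SD, n = 3) in shoulder and forelimb and 4.87 ± 0.35 (SD, n = 4) in hindlimb muscles. Shoulder and forelimb muscles were 2.15-fold the head level, a difference of 1.11 (SE 0.27, 95% interval 0.51 to 1.70, unadjusted p = 0.00195, adjusted p = 0.681), which did not pass. It was 0.93 among wide arrays. The hindlimb minus head difference was 0.62 (adjusted p = 0.401) and 0.34 among wide arrays.

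Sfrp2 is the member with 2 probe sets, and they disagreed. The one used has the higher mean, 4.89. The other had a mean of 3.69, ran from 3.40 to 3.96, and gave a shoulder and forelimb minus head difference of -0.11. With the average of both probe sets the difference was 0.50. Of the 12 fibroblast and fibro-adipogenic progenitor markers 11 were measured and none was under 4 on every array. Their mean log2 level was 7.78 to 8.15 in head, 8.03 to 8.54 in shoulder and forelimb and 8.07 to 8.47 in hindlimb muscles, and it was lowest in masseter. Between shoulder and forelimb and head muscles 10 of these 11 markers had a positive difference (median 0.28). Other marker lists differed more: 9 of 9 myeloid markers (median 0.70) and 7 of 7 white adipocyte markers (median 1.24) had a positive difference, and 10 of 10 endothelial markers a negative one (median -0.69). Myeloid markers had a mean log2 level of 4.55 to 4.79 in head, 5.06 to 5.93 in shoulder and forelimb and 4.85 to 5.36 in hindlimb muscles, with 2 of 9 under 4 on every array. White adipocyte markers had a mean log2 level of 7.17 in trapezius, 5.55 in supraspinatus and 5.06 in triceps. In head arrays it was 4.77 to 4.81, so trapezius stood apart. Triceps was the highest array for fibroblast markers, myeloid markers and Sfrp2 alike. The order of the other muscles was not the same. Digastric, lowest for Sfrp2 at 4.18, had a fibroblast mean of 8.15, while trapezius had one of 8.03 with Sfrp2 at 4.96. The part of these cells in the Sfrp2 values was not tested.

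Sfrp1, Sfrp4 and Sfrp5, which bind Wnt ligands in the same way, showed no such order. Sfrp1 was at 4.53 in masseter and 5.56 in digastric, at 5.80 in trapezius, 5.41 in supraspinatus and 4.86 in triceps, and at 4.95 in rectus femoris, 5.13 in tibialis anterior, 4.60 in soleus and 5.13 in gastrocnemius. Sfrp4 was at 4.33 in masseter and 4.24 in digastric, at 3.76 in trapezius, 4.12 in supraspinatus and 4.61 in triceps, and at 3.96 in rectus femoris, 4.94 in tibialis anterior, 3.87 in soleus and 4.50 in gastrocnemius. Sfrp5 was at 4.61 in masseter and 4.78 in digastric, at 4.73 in trapezius, 4.70 in supraspinatus and 5.06 in triceps, and at 3.77 in rectus femoris, 5.14 in tibialis anterior, 4.69 in soleus and 4.19 in gastrocnemius. Sfrp1 was lowest in masseter and soleus, Sfrp4 in trapezius and soleus, and Sfrp5 in rectus femoris and gastrocnemius. In head muscles masseter and digastric differed by 1.03 for Sfrp1, more than its differences between regions, which were -0.09, -0.40 and 0.31 for hindlimb minus head, hindlimb minus shoulder and forelimb, and shoulder and forelimb minus head. Among wide arrays these were -0.18, -0.74 and 0.56. For Sfrp5 the hindlimb minus head difference turned from -0.25 to 0.22.

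Of the Dickkopf genes, Dkk2 and Dkk3 had a mean of at least 4. Dkk2 was at 3.89 in masseter and 4.14 in digastric, at 4.31 in trapezius, 4.04 in supraspinatus and 4.95 in triceps, and at 5.0 in rectus femoris, 4.27 in tibialis anterior, 4.68 in soleus and 4.85 in gastrocnemius. Dkk3 was at 4.18 in masseter and 4.70 in digastric, at 4.55 in trapezius, 4.82 in supraspinatus and 4.70 in triceps, and at 4.30 in rectus femoris, 4.97 in tibialis anterior, 4.81 in soleus and 4.61 in gastrocnemius. Dkk2, which binds the Lrp co-receptors, was highest in the 3 arrays of narrow value range, and its 4 hindlimb arrays lay above both head arrays. The difference was 0.68 (SE 0.27, unadjusted p = 0.0297, adjusted p = 0.399), 0.46 among wide arrays and 0.39 with the value range as a term in the fit. For Dkk3, a divergent family member, the hindlimb minus head difference was 0.23 (adjusted p = 0.678), and 0.45 among wide arrays. Dkk1 and Dkk4 were near background, from 3.14 to 3.79 and from 3.25 to 3.64.

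Over the 38 members, 0 passed the limma test at an adjusted p under 0.05 between hindlimb and head muscles, where the share over all genes was 0.00902%. At an unadjusted p under 0.05 there were 10 members (26.3%), 9 higher and 1 lower in hindlimb muscles, against 11.9% of all genes (5.45% higher, 6.49% lower). Those were Fzd9, Sfrp2, Dkk2, Wnt1, Wnt5b, Wnt7a, Wnt7b, Wnt9b and Wnt10b on the higher side and Fzd4 on the lower side. The count was 6 of 38 among wide arrays, where the share over all genes was 7.02%. Without masseter it was 3 (5.76% of all genes), without digastric 5 (7.54%), without rectus femoris 6 (7.47%) and without gastrocnemius 6 (8.15%). With only genes of a mean of at least 4 it was 5 of 19 members, against 15.4% of such genes. All hindlimb arrays lay above both head arrays for 13 members, against 11.4% of all genes, and below for 3 (Dkk4, Fzd4 and Wnt10a), against 9.78%. Differences were positive for 23 of 38 members and for 55% of all genes. The median difference was 0.27 over the members and 0.04 over all genes, and among wide arrays 0.18 and -0.0037. It was -0.08 over the 19 members with a mean of at least 4 (-0.09 over all such genes) and 0.37 over the 19 near background (0.11 over all such genes).

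Between hindlimb and shoulder and forelimb muscles 0 members passed, with 0.00451% of all genes called. An unadjusted p under 0.05 was found for Fzd4 and Wnt7b, 2 of 38 members (5.26%) against 3.65% of all genes. Fzd4 was lower and Wnt7b higher in hindlimb muscles, against 1.81% and 1.84% of all genes. This count was 4 without soleus (6.04% of all genes), and 1 without trapezius (2.44%), supraspinatus (3.2%) or gastrocnemius (3.22%). Hindlimb arrays all lay above the shoulder and forelimb arrays for Wnt5b, Wnt7b and Wnt9b, against 2.32% of all genes, and all below for 0 members, against 2.3%. Differences were positive for 23 members and for 48.2% of all genes. The median difference was 0.05 over the members and -0.01 over all genes.

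Between shoulder and forelimb and head muscles 0 members passed, with 0% of all genes called. Sfrp2, Wnt3a, Wnt7a and Wnt9a had an unadjusted p under 0.05, all higher in shoulder and forelimb muscles, which is 10.5% of the members against 6.92% of all genes (3.17% higher, 3.75% lower). The count was 8 with only the arrays of these 2 regions in the fit (11.4% of all genes). It was 2 with the trapezius among the head muscles (4.66%), 2 with the value range as a term (7.39%), and 2 with only genes of a mean of at least 4 (8.47%). It was 1 without masseter (4.1%), trapezius (6.33%) or supraspinatus (6.93%), and 2 without digastric (5.22%) or triceps (3.72%). Shoulder and forelimb arrays all lay above the head arrays for 9 members, against 15.2% of all genes, and below for Fzd6 and Wnt5a, against 14.7%. Differences were positive for 25 members and for 55.5% of all genes. The median difference was 0.11 over the members and 0.04 over all genes.

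**Figure D3:**
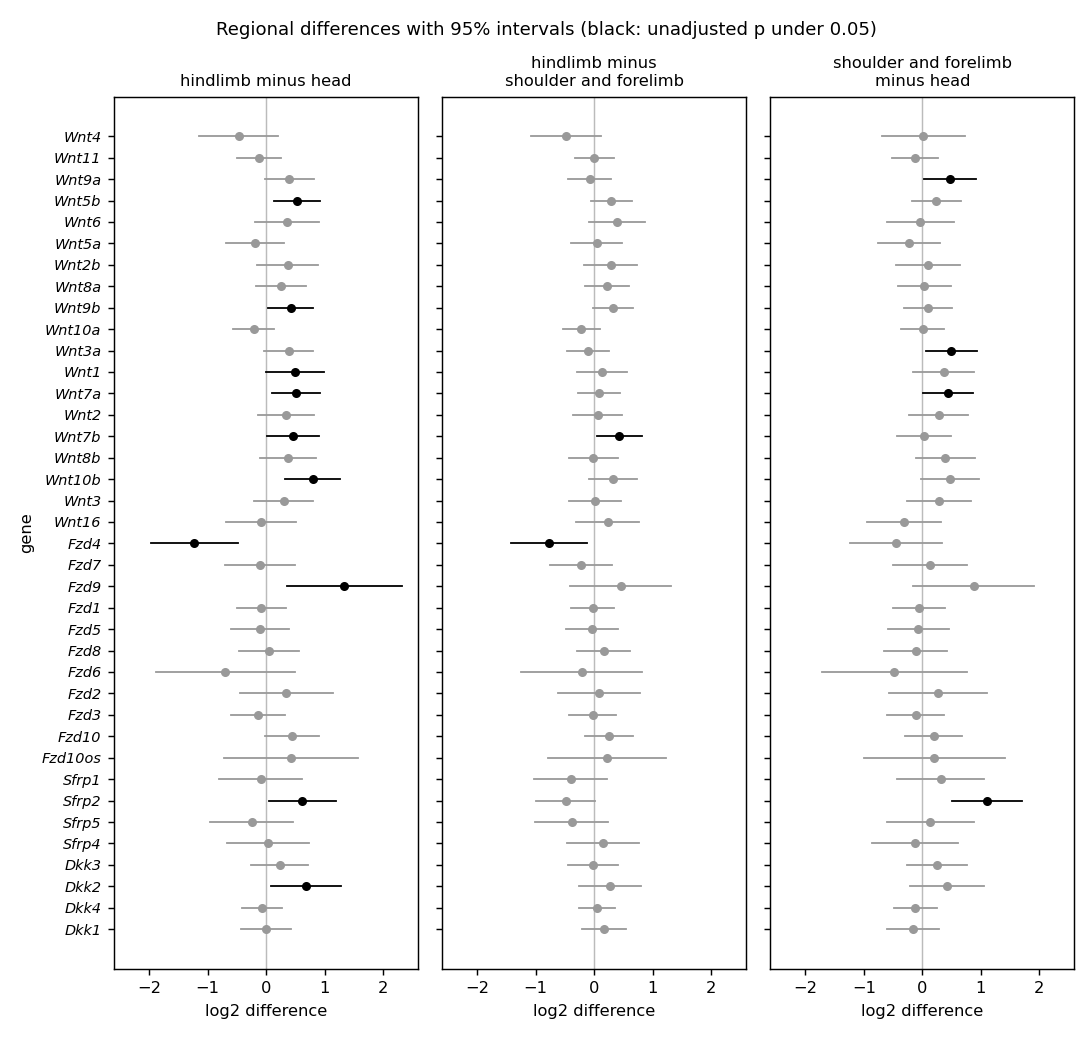
Differences in log2 units (horizontal axes) for the 38 members in 3 regional comparisons, with 95% intervals from limma; black marks an unadjusted p under 0.05 and no member passed after adjustment over all genes. In hindlimb minus head, 9 of the 10 black points lie above 0 and Fzd4 lies at -1.23.

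Genes elsewhere in the pathway were taken from 8 lists, with 81 of 83 genes measured, and 0 of the 81 passed in any comparison. An unadjusted p under 0.05 was found for 14, 5 and 8 of them in hindlimb against head, hindlimb against shoulder and forelimb, and shoulder and forelimb against head muscles, in that order. These are 17.3%, 6.17% and 9.88%, against 11.9%, 3.65% and 6.92% of all genes. Median hindlimb minus head differences were 0.08 for 7 co-receptors, 0.23 for 9 R-spondin axis genes, 0.31 for 13 other secreted or surface modulators and 0.0010 for the secretion factors Porcn and Wls. They were -0.05 for 12 measured genes of the destruction complex with Dishevelled, 0.17 for 12 nuclear effectors, 0.21 for 16 beta-catenin target genes and 0.09 for 18 planar polarity and non-canonical genes. Over all genes the median was 0.04.

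The 4 co-receptors named by highest mean were Ryk, Lrp6, Lrp5 and Musk. Ryk, a receptor-like Wnt binder, differed by -0.66 between hindlimb and head muscles (adjusted p = 0.387) and by -0.40 among wide arrays. Lrp5 differed by -0.73 (adjusted p = 0.411) and by -0.28 among wide arrays. Lrp6 differed by -0.17 and by 0.22 among wide arrays, with the sign turned. Musk, the kinase that organises the neuromuscular junction, was at 7.05 in soleus and at most 5.81 elsewhere. Beta-catenin itself (Ctnnb1) stayed within 8.09 to 8.26 on all 9 arrays. The Wnt inhibitors Frzb and Wif1 were both lowest in masseter, at 4.75 and 3.57, and Wif1, named after its values were seen, differed by 0.79 between hindlimb and head muscles (adjusted p = 0.381).

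Of the R-spondin axis, which regulates the Frizzled receptors at the cell surface, Lgr4, Znrf3, Rspo1 and Rspo4 had the highest means. Their hindlimb minus head differences were -0.03, 0.17, 0.39 and 0.30. Among wide arrays these were 0.01, 0.16, 0.21 and 0.11. Rspo3, named after its values were seen, was at 4.70 in soleus and at most 3.16 elsewhere. Among the modulators, the Dickkopf receptor Kremen1 was at 8.42 in soleus and at most 7.05 elsewhere, Tmem88 ran from 6.06 in gastrocnemius to 7.33 in soleus, and the glypican Gpc4 was highest in digastric at 6.84. In the destruction complex the kinases Csnk1a1 and Gsk3b differed by -0.80 and -0.51 between hindlimb and head muscles, and by -0.28 and 0.11 among wide arrays, so the sign of Gsk3b turned. Dvl1, a Dishevelled gene, ran from 7.09 to 7.78.

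Of the nuclear effectors, the corepressor Tle4 was at 7.51 in masseter and from 5.26 to 6.19 elsewhere, and differed by -1.28 between hindlimb and head muscles (SE 0.32, adjusted p = 0.355). Bcl9l, Pygo1 and Ctnnbip1 differed by 0.22, -0.20 and 0.25, and by 0.12, 0.01 and 0.13 among wide arrays, with the sign of Pygo1 turned. Among target genes Tnfrsf19, a receptor of the tumour necrosis factor family, differed by -0.98 (SE 0.22, adjusted p = 0.312), the lowest adjusted p among the pathway genes. Its highest array was masseter at 6.89 and its lowest rectus femoris at 5.28. Ccnd2 and Myc differed by -0.02 and 0.19 with all arrays and by 0.08 and -0.10 among wide arrays, so both signs turned.

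Nkd2, Sp5 and Axin2, which beta-catenin induces, were named after their values were seen. Nkd2 and Sp5 differed by 0.84 and 0.82 between hindlimb and head muscles (adjusted p = 0.351 and 0.36), and by 0.82 and 0.61 among wide arrays. Sp5, with a mean of 3.72, is near background. Axin2, the classical feedback target, was at 4.40 in masseter and 4.87 in digastric, at 5.37, 5.0 and 4.75 in trapezius, supraspinatus and triceps, and at 5.04, 5.02, 5.49 and 5.02 in rectus femoris, tibialis anterior, soleus and gastrocnemius. Its hindlimb minus head difference was 0.50 (adjusted p = 0.42). Of the planar polarity and non-canonical genes, the GTPases Rhoa and Rac1 differed by -0.04 and -0.56, Nfatc1 by 0.21 and the calcium-dependent kinase Camk2a by 0.40, with its lowest level, 7.22, in soleus. Among wide arrays the values were 0.07 for Rhoa, -0.30 for Rac1, 0.13 for Nfatc1 and 0.14 for Camk2a, and the sign of Rhoa turned. None of these passed.

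**Figure D4:**
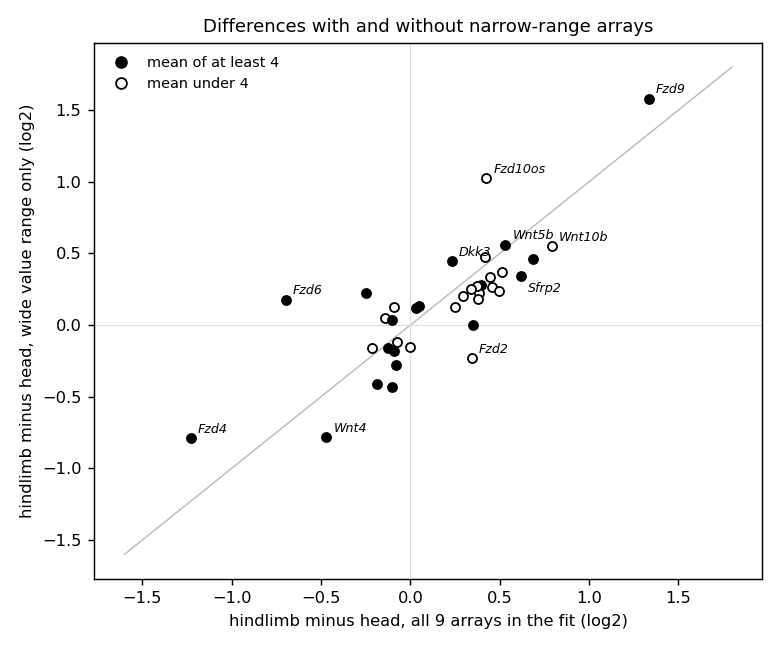
Hindlimb minus head difference of each of the 38 members (log2 units) with all 9 arrays on the horizontal axis and with only the 6 arrays of wide value range on the vertical axis; filled points have a mean of at least 4, open points a mean under 4, and the grey line marks equal values. Fzd4 and Fzd9 keep their sign, at -0.79 and 1.58 among wide arrays, while Fzd6 and Fzd2 are among the genes whose sign turns.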

How the data were processed

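RNA of 9 muscles was measured with 1 array each. The deposited values are log2 expression per probe set, and GCRMA is named without a version in the submitters' processing notes. That they are log2 was inferred from their range. Of 41345 probe sets, 23521 name 1 gene, of which 23328 matched the GRCm38.p6 gene table by Entrez identifier and took its symbols. The probe set with the highest mean was kept per gene, which left 22180 genes. Limma 3.58.1 (R 4.3.3; lmFit, eBayes) fitted a mean per region to all 9 arrays, with 3 two-sided contrasts, 6 residual degrees of freedom and Benjamini-Hochberg adjustment over all genes at 0.05. Every adjusted p comes from this fit. The procedure was tested on simulated data. Fold values are 2 to the power of the log2 difference. The labels name no separate animals as replicates, and pooling is not stated.

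Members with a mean of at least 4 are given on every array. Below 4, those with an unadjusted p under 0.05 or a span of at least 1 are named. Of each pathway list the genes past the threshold and up to 4 with the highest mean are named. The 8 pathway lists and 13 marker lists, like the members, were chosen with earlier results of these data known. No marker gene passed in any comparison. Median hindlimb minus head differences were 0.08 for skeletal muscle, 0.15 for fibroblast, 0.76 for tendon, 0.44 for satellite cell, -0.57 for endothelial, 0.04 for smooth muscle and pericyte, and 0.23 for white adipocyte markers. They were 0.24 for Schwann cell, 0.42 for myeloid, -0.28 for salivary gland, 0.33 for cartilage and bone, 1.95 for slow fibre and -0.07 for fast fibre genes. Promoter sequences come from RefSeq.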

Additional observations from a re-analysis of the deposited data

Results flagged for a closer look

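Within the 4 hindlimb arrays, 2 of the 38 members had 1 array far from the other 3. Wnt2 was at 3.097 in soleus, against 3.465 for the next lowest hindlimb array, a gap of 0.921 of the group's span. Wnt8a was at 4.379 in rectus femoris, against 3.919 for the next highest, a gap of 0.928 of the span. Both genes are near background, and chance alone gives about 1 such gap in 20 groups.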

How the results depend on the processing

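The count of members past the threshold was 0 under all 18 alternatives in each of the 3 comparisons. No paired analysis was possible because the labels carry no replicate numbers. Of 298 alternative values for 17 differences, 16 chosen for an unadjusted p under 0.05 and 1 for Fzd9, 298 kept their direction and 0 passed. Members not so chosen turned sign among wide arrays, such as Fzd2, Fzd3, Fzd5, Fzd6, Sfrp5 and Wnt16 between hindlimb and head muscles. The alternatives reuse the arrays from which the differences were chosen, so a kept direction was likely from the start. They do not include the second Sfrp2 probe set alone, which gave -0.11 for shoulder and forelimb minus head. Between hindlimb and head muscles the count of all genes past the threshold was 2. It was 1 with median centring, with trend and robust settings, with only the arrays compared, with the trapezius among the head muscles, with the value range as a term and among wide arrays. With 1 array left out it ran from 0 (without masseter) to 19 (without soleus), with 4 without digastric and 1 without trapezius, triceps, rectus femoris, tibialis anterior or gastrocnemius. Between shoulder and forelimb and head muscles it ran from 0 to 4 (without digastric). Where a head array is left out, the lone one is assumed to vary like the other groups. The cause of these changes was not tested. Values near background, 19 of 38 members, limit what the arrays show.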
